A study of Mus musculus with 8 samples.

Results

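Annexins are cytosolic proteins that bind negatively charged phospholipids when calcium rises, and they take part in membrane repair, vesicle traffic and the anchoring of cortical actin. Several of them carry a small S100 protein as a partner: annexin A2 pairs with S100A10 at the plasma membrane, and annexin A1 pairs with S100A11. On the cell surface the complex of annexin A2 with S100A10 serves as a docking site for plasminogen and its activators. In liver, annexin A5 and annexin A6 are abundant in hepatocytes, whereas annexin A2 is low in healthy hepatocytes and higher in bile duct, stromal and myeloid cells.

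The 10 genes described here are 8 annexins (Anxa1, Anxa2, Anxa3, Anxa4, Anxa5, Anxa6, Anxa7 and Anxa11) and 2 S100 genes (S100a10 and S100a11), of 23337 gene symbols counted in each library. They were chosen by symbol as annexin family members and annexin-binding S100 genes, and the list was drawn up when the counts of these same 8 libraries had already been looked at. Their levels and differences are therefore given as a description, with standard errors and without p-values. All 10 were counted in every library and all 10 passed the filter on low counts.

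RNA was sequenced from livers of C57BL/6 mice aged 12 weeks, in 4 groups of 2 samples: WT fasted overnight, HRD1Alb fasted overnight, WT fasted and then refed for 4 h, and HRD1Alb fasted and then refed for 4 h. HRD1Alb mice carry floxed alleles of Syvn1, which encodes the ubiquitin ligase HRD1 of the endoplasmic reticulum, and a Cre transgene driven by the albumin enhancer and promoter, which acts in cells of the hepatocyte lineage from early liver development on. The labels give these animals as Hrd1-/- and the controls as WT, while the study describes its controls as floxed mice without Cre. Nothing in the labels says whether the 2 samples of a group came from separate animals, so the standard errors and p-values measure the spread between these samples. The comparisons ask how loss of HRD1 in hepatocytes changes the liver transcriptome in each feeding state.

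Library totals ran from 40210576 to 49117080 counts, so that 3 counts corresponded to 0.0508 to 0.0788 CPM (counts scaled to a common library size with TMM factors). Syvn1 was at 32.6 and 31.5 CPM in fasted HRD1Alb livers against 111 and 99.8 in fasted WT livers, a log2 difference of -1.72 (SE 0.561, adjusted p = 0.170, edgeR quasi-likelihood test with Benjamini-Hochberg adjustment). After refeeding it was at 453 and 132 CPM in HRD1Alb against 637 and 305 CPM in WT (log2 difference -0.69, SE 0.547, adjusted p = 0.391 by the same test), so the library labelled HRD1Alb refed replicate 1 lay inside the WT range. By the study's own account, HRD1 mRNA and protein were both eliminated in HRD1Alb livers. Here Syvn1 was higher after refeeding in HRD1Alb livers (log2 difference 3.19, SE 0.593, adjusted p = 0.0213, same edgeR test). In WT livers the refeeding difference was 2.16 (SE 0.568, adjusted p = 0.111, same test). The count covers the whole gene, and which exons were floxed is not given in the sources used here. The refed HRD1Alb libraries also differed more from each other than any other pair: Spearman's rho across genes was 0.955 against 0.990 to 0.995, 3204 tested genes were at least 2-fold apart against 424 to 1141, and short genes were higher in replicate 2 (rho of the log2 ratio, replicate 2 over replicate 1, with merged exon length of -0.581, against -0.112 to 0.0304 in the other pairs). The refed differences of the 10 genes are given with and without each of these libraries.

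The sequences upstream of the genes that were called higher in refed HRD1Alb livers are shown first, because these genes had the 5 largest positive refed differences of the 10. RefSeq promoter windows on GRCm38 were matched by symbol for 7 of the 10 genes (not for Anxa3, Anxa6 and S100a10). The 250 bases before the start site of the window are printed 5′ to 3′ on the strand of the gene. These start sites differ from the ends of the GENCODE gene spans given below. The Anxa1 window lies inside the span of its gene, and the Anxa2, S100a11 and Anxa5 windows overlap the spans of theirs. Capitals mark matches, on either strand, to a GC box (GGGCGG), an AP-1 site (TGANTCA), a TEAD site (GGAATG), an E-box (CACGTG) or a TATA box (TATAAA), and a composite ATF4 and CHOP element (TGATGNAAT) was also searched. No 2 matches overlap in these windows. The windows are chr9:69453433-69453682 (+) for Anxa2, chr3:93520246-93520495 (+) for S100a11, chr19:20390672-20390921 (-) for Anxa1 and chr3:36475888-36476137 (-) for Anxa5.
Anxa2: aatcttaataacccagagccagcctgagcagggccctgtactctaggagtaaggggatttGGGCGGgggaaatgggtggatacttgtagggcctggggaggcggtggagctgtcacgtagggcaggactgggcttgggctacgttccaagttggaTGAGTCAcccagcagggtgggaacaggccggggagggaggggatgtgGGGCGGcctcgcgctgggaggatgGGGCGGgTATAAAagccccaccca
S100a11: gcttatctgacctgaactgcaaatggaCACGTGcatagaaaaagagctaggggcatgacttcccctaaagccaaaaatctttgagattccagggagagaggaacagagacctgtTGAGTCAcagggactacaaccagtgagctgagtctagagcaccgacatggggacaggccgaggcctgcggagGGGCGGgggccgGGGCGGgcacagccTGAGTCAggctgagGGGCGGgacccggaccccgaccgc
Anxa1: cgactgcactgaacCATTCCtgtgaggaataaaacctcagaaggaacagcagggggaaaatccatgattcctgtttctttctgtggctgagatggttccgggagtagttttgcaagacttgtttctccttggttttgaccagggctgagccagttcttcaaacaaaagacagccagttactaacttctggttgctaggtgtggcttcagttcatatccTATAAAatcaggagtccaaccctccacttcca
Anxa5: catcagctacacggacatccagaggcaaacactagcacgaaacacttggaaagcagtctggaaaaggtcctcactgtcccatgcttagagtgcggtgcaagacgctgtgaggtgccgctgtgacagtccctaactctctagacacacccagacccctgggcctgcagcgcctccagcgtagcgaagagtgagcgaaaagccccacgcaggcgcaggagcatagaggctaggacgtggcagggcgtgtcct
The Anxa2 window held 3 GC boxes, an AP-1 match starting 95 bases before the start site and a TATA box starting 17 bases before it. The S100a11 window held 3 GC boxes, AP-1 matches at 136 and 38 bases and an E-box at 223 bases before the start. Anxa1 had a TEAD match and a TATA box and no GC box, and Anxa5 had none of the 6 motifs. Among 32851 RefSeq promoter windows of the same length, 32.7% held a GC box, 6.75% an AP-1 match, 12.6% a TEAD match, 6.02% an E-box, 12.4% a TATA box and 0.816% the composite element. AP-1 matches were present in 2 of the 7 genes with a window, Anxa2 and S100a11, and the composite element was in none of the 7. These matches describe letters only.

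Anxa2 (chr9:69453620-69491795 on GRCm38, + strand) encodes the annexin that carries S100A10 and showed the largest genotype difference of the 10 genes. It was at 10.6 and 12.5 CPM in fasted WT livers and 14.3 and 15.7 CPM in refed WT livers. In HRD1Alb livers it was at 50.4 and 50.8 CPM when fasted and at 148 and 124 CPM when refed. The 4 groups did not overlap, and the order from low to high was WT fasted, WT refed, HRD1Alb fasted, HRD1Alb refed. The log2 difference of HRD1Alb from WT was 2.13 (SE 0.173, 4.37-fold) in fasted and 3.18 (SE 0.180, 9.05-fold) in refed livers. Without the library labelled HRD1Alb refed replicate 1 the refed value was 3.04, and without replicate 2 it was 3.30. It was 2.83 with the trend with transcript length removed from every library and 3.41 when libraries were scaled by their totals alone.

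S100a11 (chr3:93520488-93526287, + strand), whose product binds annexin A1, had the next largest difference. It was at 2.32 and 2.70 CPM in fasted WT, 1.80 and 2.81 CPM in refed WT, 8.41 and 5.59 CPM in fasted HRD1Alb and 11.1 and 18.2 CPM in refed HRD1Alb livers. Both HRD1Alb groups lay above both WT groups, which overlapped each other. The log2 difference was 1.48 (SE 0.355, 2.79-fold) in fasted and 2.66 (SE 0.367, 6.34-fold) in refed livers, and the refed value was 2.97 without the library labelled HRD1Alb refed replicate 1 and 2.26 without replicate 2. S100a11 is the shortest of the 10 genes, with 511 bases of merged exon, and with the trend with transcript length removed from every library its refed difference was 1.94, and 1.93 with the replicate block as well.

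**Figure D1:**
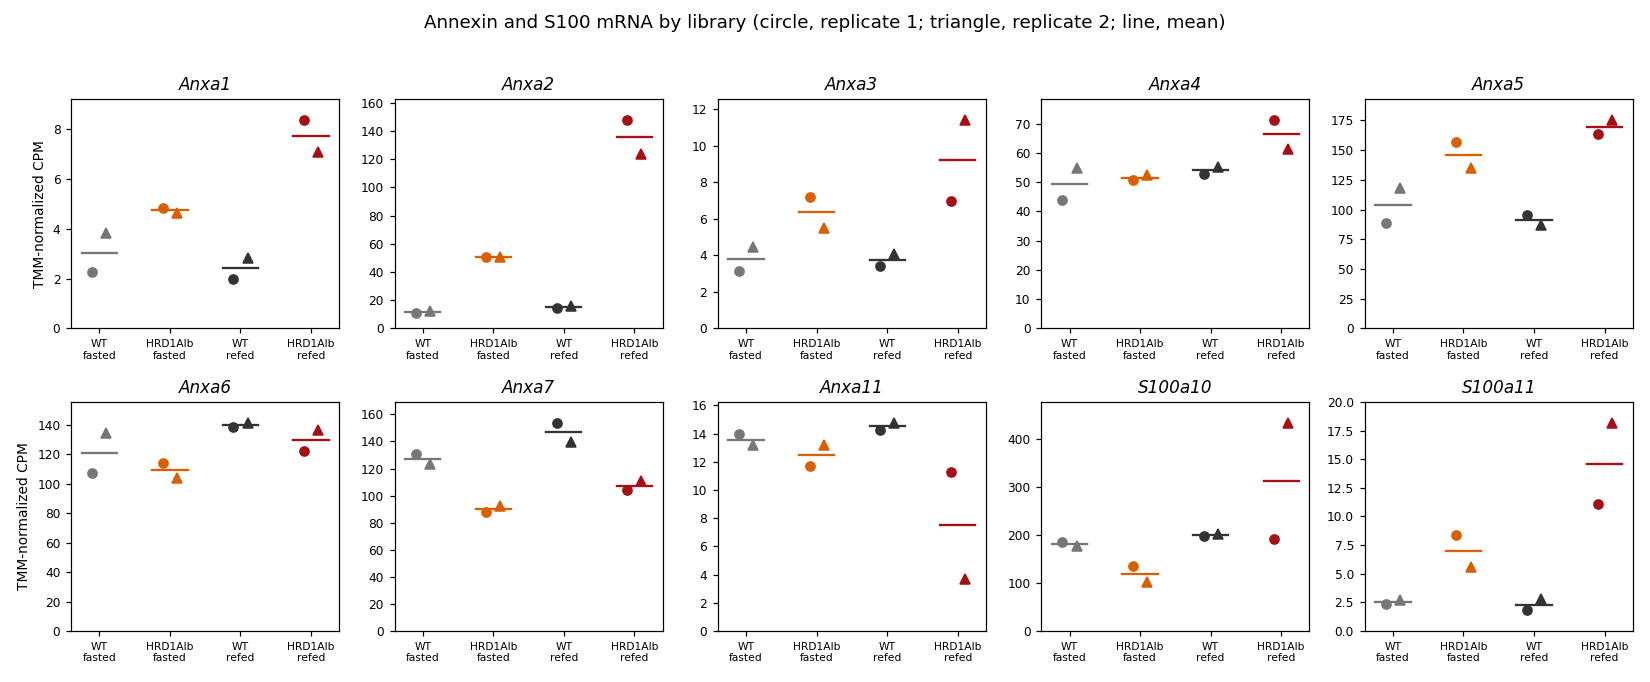
Levels of the 10 genes in each library, as TMM-normalized CPM on a linear axis from 0, with circles for replicate 1, triangles for replicate 2 and a line at the mean of each group. Anxa2 reaches 124 to 148 CPM in refed HRD1Alb livers against 14.3 to 15.7 CPM in refed WT livers, while the 2 refed HRD1Alb points of S100a10 (191 and 433 CPM) and of Anxa11 (11.3 and 3.73 CPM) lie far apart.

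Anxa1 (chr19:20373428-20390944, - strand) encodes the glucocorticoid-regulated annexin that signals through formyl peptide receptors. It was at 2.27 and 3.82 CPM in fasted WT, 2.0 and 2.81 CPM in refed WT, 4.83 and 4.65 CPM in fasted HRD1Alb and 8.36 and 7.06 CPM in refed HRD1Alb livers. Every HRD1Alb library was above every WT library, by a log2 difference of 0.64 (SE 0.305) in fasted and 1.68 (SE 0.311, 3.21-fold) in refed livers. The refed value was 1.55 without the library labelled HRD1Alb refed replicate 1, 1.79 without replicate 2 and 1.40 with the length trend removed.

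Anxa3 (chr5:96793339-96845966, + strand) was likewise low in WT, at 3.14 and 4.48 CPM fasted and 3.43 and 4.10 CPM refed. It was at 7.22 and 5.50 CPM in fasted and at 6.99 and 11.4 CPM in refed HRD1Alb livers, and again no HRD1Alb library fell within the WT range. Its refed log2 difference of 1.29 (SE 0.319) moved to 0.89 without HRD1Alb refed replicate 2 and to 1.59 without the library labelled replicate 1. With the length trend removed it was 1.13. Its fasted value was 0.74 (SE 0.316).

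Anxa5 (chr3:36448923-36475894, - strand), whose product binds exposed phosphatidylserine, was abundant in all groups. It was at 89.0 and 118 CPM in fasted WT, 95.1 and 87.0 CPM in refed WT, 157 and 135 CPM in fasted HRD1Alb and 163 and 175 CPM in refed HRD1Alb livers. The groups of different genotype did not overlap in either feeding state. The log2 difference was 0.49 (SE 0.186, 1.41-fold) in fasted and 0.89 (SE 0.187, 1.86-fold) in refed livers. The refed value was 0.94 without the library labelled HRD1Alb refed replicate 1 and 0.84 without replicate 2. It was 0.57 with the length trend removed, with or without the replicate block, and the call of Anxa5 was then lost.

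Anxa7 (chr14:20455260-20480133, - strand), which encodes an annexin with a long N-terminal tail, was lower in HRD1Alb livers. It was at 131 and 123 CPM in fasted WT against 87.8 and 92.0 CPM in fasted HRD1Alb livers, and at 154 and 140 CPM in refed WT against 104 and 111 CPM in refed HRD1Alb livers. The log2 differences were -0.50 (SE 0.145) fasted and -0.45 (SE 0.145) refed, and -0.12 and -0.24 when libraries were scaled by their totals alone. The refed value was -0.41 without the library labelled HRD1Alb refed replicate 1 and -0.51 without replicate 2. Both main values missed the threshold in the edgeR test and passed it in the DESeq2 Wald test.

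Anxa4 (chr6:86736840-86793584, - strand) and Anxa6 (chr11:54979108-55033445, - strand), which encodes the annexin with a duplicated core, differed little between genotypes. Anxa4 was at 43.8 and 54.8 CPM in fasted WT, 50.8 and 52.3 CPM in fasted HRD1Alb, 52.7 and 55.3 CPM in refed WT and 71.3 and 61.4 CPM in refed HRD1Alb livers. Only the refed genotypes did not overlap, with a log2 difference of 0.30 (SE 0.170), which was 0.18 without the library labelled HRD1Alb refed replicate 1, 0.39 without replicate 2 and 0.05 with the length trend removed. Anxa6 ranged from 104 to 141 CPM over the 8 libraries, with log2 differences of -0.15 (SE 0.168) fasted and -0.11 (SE 0.168) refed, which were 0.24 and 0.10 when libraries were scaled by their totals alone. The refed Anxa6 value was -0.04 without the library labelled HRD1Alb refed replicate 1 and -0.20 without replicate 2.

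Anxa11 (chr14:25842156-25886804, + strand) encodes an annexin that tethers RNA granules to lysosomes. It ran from 11.3 to 14.8 CPM in 7 libraries and stood at 3.73 CPM in HRD1Alb refed replicate 2. The refed log2 difference of -0.95 (SE 0.437) was -0.37 without that library and -1.97 without the library labelled HRD1Alb refed replicate 1, and the fasted difference of -0.12 (SE 0.432) was 0.26 when libraries were scaled by their totals alone. The annotation holds an antisense gene that shares 113 exonic bases with Anxa11, and Anxa4 shares 75 exonic bases with another antisense gene. Whether strand was used in counting is not given in the sources used here.

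S100a10 (chr3:93555080-93564643, + strand), the partner of annexin A2, did not follow Anxa2. It was at 185 and 176 CPM in fasted WT against 135 and 102 CPM in fasted HRD1Alb livers, a log2 difference of -0.61 (SE 0.350). Among refed livers it was at 197 and 201 CPM in WT, at 191 CPM in the library labelled HRD1Alb refed replicate 1 and at 433 CPM in replicate 2. One refed HRD1Alb library was thus just below both WT libraries and the other far above them. The refed log2 difference was 0.65 (SE 0.350) with both, -0.07 without replicate 2, 1.11 without the library labelled replicate 1, and -0.06 when the trend with transcript length was removed from every library. S100a10 has 802 bases of merged exon, and other short S100 genes were also higher in HRD1Alb refed replicate 2, such as S100a1 (49.3 CPM in the library labelled replicate 1 and 121 CPM in replicate 2), S100a13 (13.7 and 51.5 CPM) and S100a16 (22.8 and 52.4 CPM). The part of transcript length in the S100a10 difference beyond that correction was not tested.

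**Figure D2:**
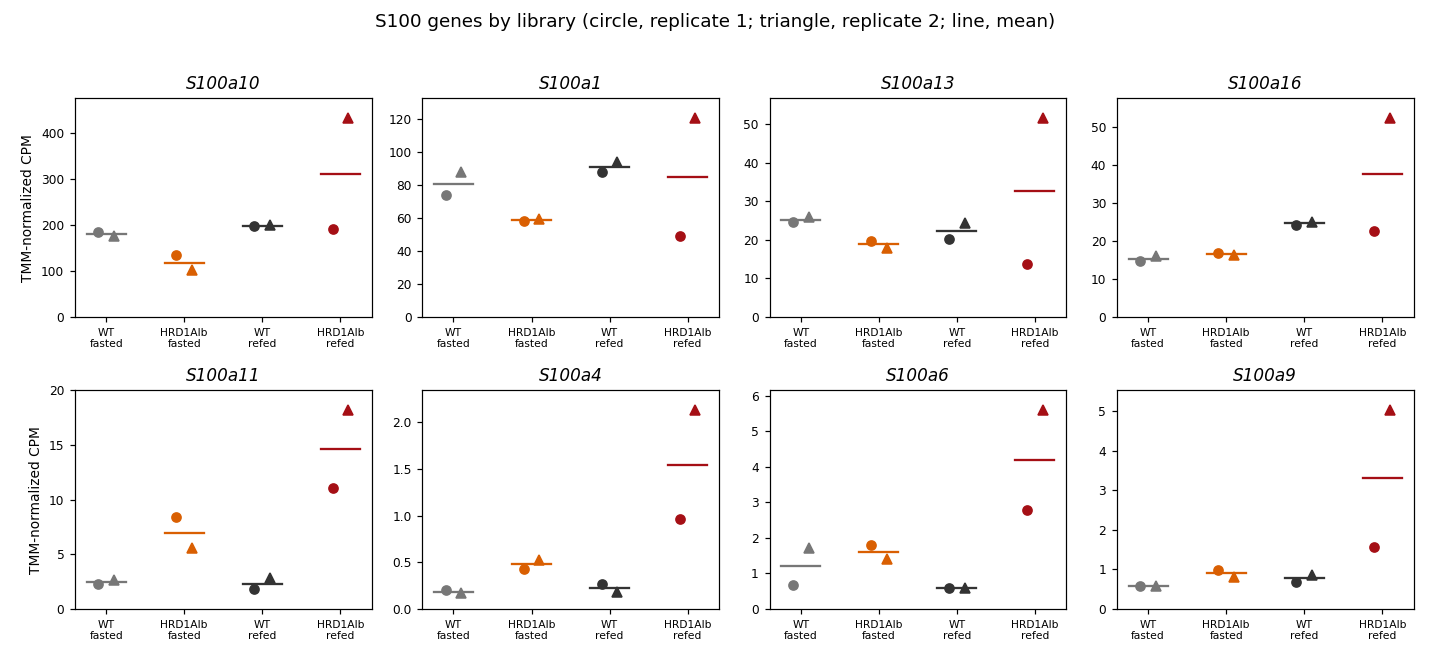
S100 genes in each library, as TMM-normalized CPM on a linear axis from 0, with circles for replicate 1, triangles for replicate 2 and a line at the mean of each group. In S100a10, S100a1, S100a13 and S100a16 the refed HRD1Alb samples lie on either side of the refed WT samples, whereas in S100a11, S100a4, S100a6 and S100a9 both lie above them.

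In refed livers 5 of the 10 genes were called higher in HRD1Alb at an adjusted p under 0.05 (Anxa1, Anxa2, Anxa3, Anxa5 and S100a11), where 7.09% of 14328 tested genes were, and 0 were called lower, where 4.84% were. Both HRD1Alb samples lay above both WT samples for 6 genes (30.7% of tested genes) and below them for 3 (30.1%). In fasted livers 1 gene, Anxa2, was called higher (0.921%) and 0 were called lower (0.433%), with 5 genes entirely above (30.6%) and 3 entirely below (34.2%). At an unadjusted p under 0.05 the same edgeR test gave 5 higher and 1 lower (Anxa7) in refed livers, where 33.3% of tested genes passed in either direction, and 3 higher (Anxa2, Anxa5 and S100a11) and 1 lower (Anxa7) in fasted livers, where 18.4% passed. The median log2 difference of the 10 genes was 0.77 in refed and 0.28 in fasted livers, against 0.04 and -0.02 over all tested genes. The list was drawn up with these data in view, so nothing is read from these counts and medians. The refed count was 0 without either WT refed sample, when at most 2 of all tested genes were called. It was 2 (Anxa2 and S100a11) without either HRD1Alb fasted sample, when 1.65% and 1.71% of tested genes were called higher, and 4, without Anxa3, when either WT fasted sample was left out (3.30% and 3.22%). Without the library labelled HRD1Alb refed replicate 1, 6 of the 10 were called higher (25% of tested genes) and 2, Anxa7 and Anxa11, lower (27.8%). Without HRD1Alb refed replicate 2, 4 were called higher (11.9%), with Anxa3 lost, and Anxa7 lower (11.7%). In fasted livers no gene of the 10 was called when any of the 4 fasted samples was left out, when at most 3 of all tested genes were. Anxa2 and S100a11 were called higher and Anxa7 and S100a10 lower in fasted livers when either refed HRD1Alb library was left out (9.84% and 9.66% of tested genes higher, 11.8% and 11.6% lower).

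**Figure D3:**
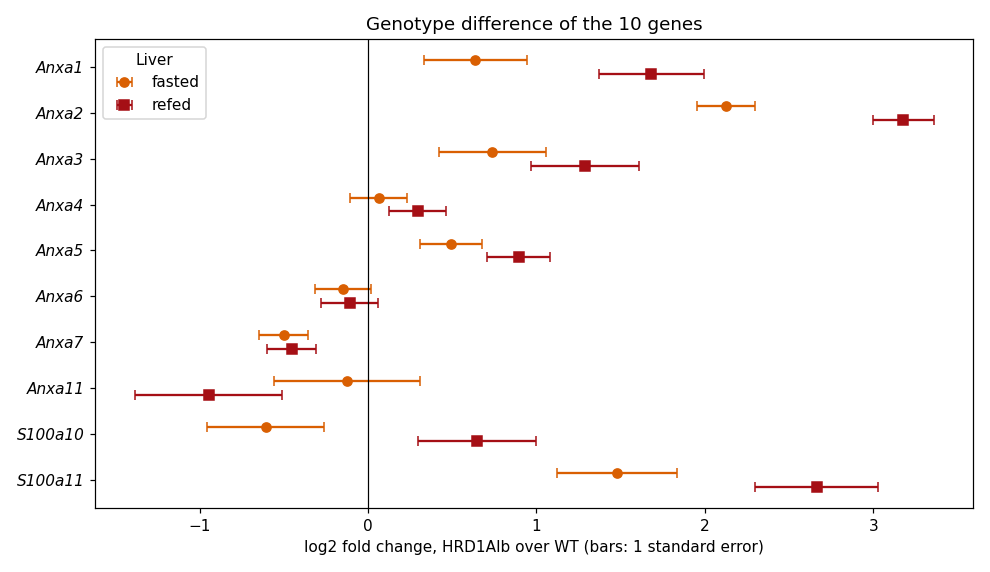
Log2 fold change of HRD1Alb over WT for the 10 genes, with circles for fasted and squares for refed livers and bars of 1 standard error from the edgeR fit. Anxa2 (2.13 and 3.18) and S100a11 (1.48 and 2.66) lie farthest to the right, and Anxa7 (-0.50 and -0.45) lies to the left of 0 in both states.

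Refeeding was also compared within each genotype. In WT livers the edgeR test called 0 of the 10 genes in either direction (1.2% of all tested genes were called higher and 1.41% lower), 0 had an unadjusted p under 0.05, and DESeq2 and limma-trend called 0. In 5 genes both refed samples were above both fasted samples (30.8%) and in 0 both were below (29.6%). In HRD1Alb livers Anxa2 (log2 difference 1.42, SE 0.168) and S100a10 (1.40, SE 0.355) were called higher (5.43%) and 0 of the 10 were called lower (5.05%), with 8 entirely above (29.2%) and 1, Anxa11, entirely below (29.5%). The Anxa2 value was 1.55 without HRD1Alb refed replicate 2 and 1.29 without the library labelled replicate 1, and the S100a10 value was 0.69 and 1.87. The S100a10 call was lost with RLE normalization, with limma-trend and with the replicate block. The median of the 10 genes was 0.11 in WT and 0.45 in HRD1Alb livers, against 0.00 and 0.02 over all tested genes. S100a10 was not called when any of the 4 WT samples was left out. Neither gene was called without HRD1Alb fasted replicate 1 or replicate 2, and without the library labelled HRD1Alb refed replicate 1 Anxa2, Anxa3, S100a10 and S100a11 were called higher (24.8% of tested genes) and Anxa11 lower (26.6%).

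The difference between the genotype effects in the 2 feeding states was fitted as an interaction. edgeR called 0 genes of 14328 higher (0%) and 0 lower (0%), and 0 of the 10. Without an adjustment 4 of the 10 (Anxa1, Anxa2, S100a10 and S100a11) were under 0.05, as were 8.44% of all tested genes. The interaction on the log2 scale was 1.05 (SE 0.236) for Anxa2, 1.19 (SE 0.496) for S100a11, 1.04 (SE 0.432) for Anxa1 and 1.25 (SE 0.495) for S100a10. Without the library labelled HRD1Alb refed replicate 1 these values were 0.91, 1.5, 0.91 and 1.72, and without replicate 2 they were 1.17, 0.78, 1.16 and 0.55. For Anxa11 the interaction was -0.82 (SE 0.613), and it was -1.84 without the library labelled HRD1Alb refed replicate 1 and -0.24 without replicate 2. DESeq2 called Anxa2 alone of the 10, where 0.482% of all tested genes were called higher and 0.406% lower. With limma-trend 0 of the 10 and 0 of all tested genes were called.

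Levels of different genes were compared as CPM per kilobase of merged exon. In fasted WT livers S100a10 led at 225 ± 7.77 (SD, n = 2), followed by Anxa5 (59.8 ± 11.8), Anxa6 (48.6 ± 7.69), Anxa7 (41.9 ± 1.78), Anxa4 (23.4 ± 3.69), Anxa2 (7.99 ± 0.896), Anxa11 (4.98 ± 0.202), S100a11 (4.91 ± 0.528), Anxa1 (1.61 ± 0.579) and Anxa3 (1.45 ± 0.359). The ranges of Anxa5 and Anxa6, Anxa6 and Anxa7, Anxa11 and S100a11, and Anxa1 and Anxa3 overlapped. In refed HRD1Alb livers Anxa2 stood at 93.8 ± 11.7 per kilobase, with a range that overlapped that of Anxa5 (97.8 ± 4.83) and that lay above those of Anxa6 (52.1 ± 4.04), Anxa7 (35.4 ± 1.66) and Anxa4 (31.5 ± 3.32). S100a11, at 28.6 ± 9.88, overlapped Anxa4 and Anxa7 there, Anxa1 (4.07 ± 0.487), Anxa3 (3.50 ± 1.19) and Anxa11 (2.76 ± 1.97) formed the low end with overlapping ranges, and S100a10 stayed highest (389 ± 214). In refed WT livers the order was S100a10 (249 ± 3.60), Anxa6 (56.2 ± 0.922), Anxa5 (52.6 ± 3.30), Anxa7 (48.5 ± 3.26), Anxa4 (25.7 ± 0.867), Anxa2 (10.4 ± 0.699), Anxa11 (5.33 ± 0.133), S100a11 (4.51 ± 1.39), Anxa3 (1.43 ± 0.179) and Anxa1 (1.27 ± 0.302), in which Anxa5 and Anxa7, Anxa11 and S100a11, and Anxa3 and Anxa1 overlapped. In fasted HRD1Alb livers it was S100a10 (148 ± 28.3), Anxa5 (84.1 ± 8.94), Anxa6 (43.8 ± 2.86), Anxa2 (34.9 ± 0.198), Anxa7 (29.7 ± 0.992), Anxa4 (24.5 ± 0.503), S100a11 (13.7 ± 3.90), Anxa11 (4.57 ± 0.372), Anxa1 (2.50 ± 0.0676) and Anxa3 (2.42 ± 0.461), and only Anxa1 and Anxa3 overlapped.

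The make-up of annexin mRNA followed from these levels. Anxa2 made up 4.24% and 4.19% of the summed per-kilobase level of the 8 annexins in fasted WT libraries and 4.84% and 5.46% in refed WT libraries. In HRD1Alb libraries the share was 14.9% and 16% when fasted and 31.4% and 27.0% when refed. The summed level itself was 173 and 206 CPM per kilobase in fasted WT, 204 and 199 in refed WT, 234 and 219 in fasted HRD1Alb and 325 and 317 in refed HRD1Alb livers. The per-kilobase ratio of S100a10 to Anxa2 was 31.3 and 25.5 in fasted WT, 24.9 and 23.1 in refed WT, 4.82 and 3.64 in fasted HRD1Alb and 2.33 and 6.32 in refed HRD1Alb livers. S100a10 mRNA thus exceeded Anxa2 mRNA per length in all 8 libraries, and the ratio did not overlap between genotypes.

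**Figure D4:**
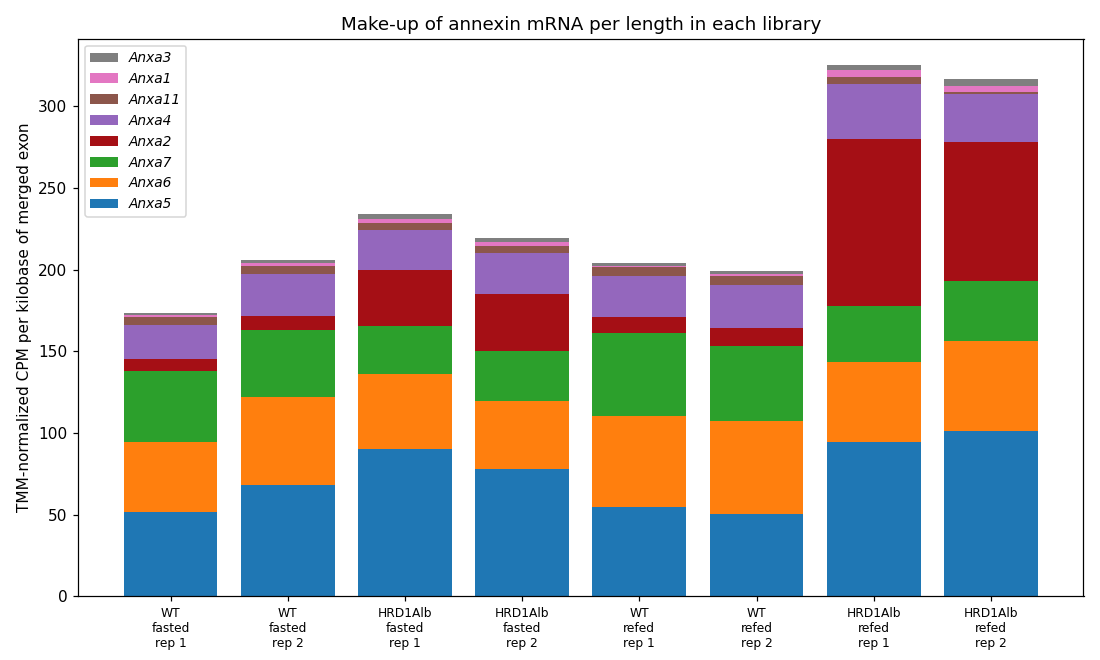
Stacked levels of the 8 annexins in each library, as TMM-normalized CPM per kilobase of merged exon on a linear axis from 0, with 1 bar per library. The Anxa2 segment takes 4.19% to 5.46% of the bar in WT libraries, 14.9% to 16% in fasted HRD1Alb libraries and 27.0% to 31.4% in refed HRD1Alb libraries.

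Genes that work with the annexins were examined as 6 further lists of 54 genes, of which 43 were tested. The lists were chosen with earlier results of these data known, so their counts, medians and p-values are a description. In refed livers 9 of the 43 rose in HRD1Alb and 0 fell, where 7.09% of all tested genes rose and 4.84% fell. The 9 were Anxa9, S100a4, S100a6, S100a9, Plau, Plaur, Myof, Tmsb4x and Vim. In fasted livers edgeR called 0 of the 43, with 11 under 0.05 before adjustment (18.4% of all tested genes). DESeq2 called 3 there (4.41% of all tested genes higher and 3.22% lower), and limma-trend called 0 (1.2% and 0.614%). When samples were left out in turn, the list counts moved along with the calls over all tested genes, and nothing is read from them. Without the library labelled HRD1Alb refed replicate 1 the log2 differences of the 9 ran from 1.34 (Myof) to 3.21 (S100a6). Without replicate 2 S100a9 was at 1.01, Tmsb4x at 1.34, S100a4 at 2.06, S100a6 at 2.20 and Myof at 2.42. With the length trend removed S100a4 was at 1.94, S100a6 at 2.13, S100a9 at 1.20 and Tmsb4x at 1.55, and the call of Plaur was lost (1.69, adjusted p = 0.0566, edgeR). All adjusted p-values below are from the edgeR quasi-likelihood test with Benjamini-Hochberg adjustment over the 14328 tested genes.

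Of the other annexins 1 of 3 tested genes rose, Anxa9. It was at 1.11 and 1.29 CPM in refed WT and 5.45 and 4.03 CPM in refed HRD1Alb livers (log2 difference 1.98, SE 0.310, adjusted p = 0.0147), and at 1.15 and 1.58 against 2.48 and 1.89 CPM in fasted livers. Anxa8 and Anxa13 stayed under 1 CPM in every library, and Anxa10 had no counts. Of the other S100 genes 3 of 7 tested genes rose in refed HRD1Alb livers. S100a4 went from 0.272 and 0.184 CPM in refed WT to 0.965 and 2.13 CPM (log2 difference 2.74, SE 0.513, adjusted p = 0.0233). S100a6, another annexin-binding S100 gene, went from 0.593 and 0.604 CPM to 2.78 and 5.59 CPM (2.80, SE 0.539, adjusted p = 0.0249). S100a9, a subunit of the neutrophil protein calprotectin, went from 0.691 and 0.867 CPM to 1.57 and 5.02 CPM (2.07, SE 0.540, adjusted p = 0.0496). For all 3 the higher value was in replicate 2, and S100a5 and S100z had no counts. S100a8 was at 0.198 and 0.604 CPM in refed WT and 1.08 and 3.31 CPM in refed HRD1Alb livers. It was not called (log2 difference 2.45, SE 0.725, adjusted p = 0.0683).

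In the plasminogen system 2 of 7 tested genes rose, those of the urokinase activator and of its receptor. Plau was at 0.543 and 0.709 CPM in refed WT and 2.76 and 2.04 CPM in refed HRD1Alb livers (log2 difference 1.94, SE 0.505, adjusted p = 0.0496), and Plaur at 0.247 and 0.394 against 1.42 and 1.21 CPM (2.03, SE 0.508, adjusted p = 0.0448). Plasminogen itself, made by hepatocytes, was at 2301 and 2583 CPM in refed WT against 1359 and 1963 CPM in refed HRD1Alb livers, which did not pass (log2 difference -0.56, SE 0.224, adjusted p = 0.134). The formyl peptide receptor genes that annexin A1 acts on, Fpr1 and Fpr2, were at or under 3.92 CPM in every library and were not called, and Fpr3 had no counts.

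Of the 13 tested genes of membrane repair and annexin binding 1 rose, Myof, which encodes a ferlin of the plasma membrane. It was at 1.26 and 1.05 CPM in refed WT and at 6.21 and 2.94 CPM in refed HRD1Alb livers (log2 difference 1.99, SE 0.446, adjusted p = 0.0354). Ahnak, whose large product binds the complex of annexin A2 with S100A10, was at 16.4 and 18.2 CPM in refed WT and 28.2 and 21.5 CPM in refed HRD1Alb livers, and was not called. Of the 11 cortical actin genes 2 rose in refed HRD1Alb livers. Tmsb4x, which encodes an actin-sequestering peptide, was at 53.7 and 53.6 CPM in WT against 136 and 307 CPM (log2 difference 2.04, SE 0.347, adjusted p = 0.0182). Vim, the intermediate filament gene of mesenchymal cells, was at 8.07 and 9.06 CPM against 33.7 and 31.3 CPM (1.92, SE 0.399, adjusted p = 0.0296). The medians of the 6 lists in refed livers, against 0.04 over all tested genes, were 1.60 for other annexins, 2.07 for other S100 genes, 1.23 for the plasminogen system, 1.0 for the annexin A1 receptors, 0.06 for membrane repair and 0.47 for cortical actin.

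The tissue label was checked against cell type markers, and several marker lists differed between the genotypes in the same libraries as the annexins. Calls are those of the edgeR test at an adjusted p under 0.05, which called 7.09% of all tested genes higher and 4.84% lower in refed livers and 0.921% and 0.433% in fasted livers. The hepatocyte marker Alb was at 47753 to 110880 CPM in every library. Summed hepatocyte markers, mostly Alb, were at 133940 to 145970 CPM in fasted WT and 86022 to 86041 CPM in fasted HRD1Alb livers. In refed livers the sum was 108910 to 115110 CPM in WT and 62244 to 100000 CPM in HRD1Alb. The median log2 difference of the 6 hepatocyte markers was -0.71 in fasted and -0.51 in refed livers. In refed HRD1Alb livers 8 of 10 macrophage markers rose (Emr1, Clec4f, Cd68, Csf1r, Vsig4, Cd5l, Marco and Ccr2), as did 4 of 9 stellate cell markers (Des, Col1a1, Col3a1 and Tagln), 2 of 5 T and NK cell markers (Gzma and Ptprc) and 2 of 5 cycling genes (Top2a and Cdk1), and 1 of 6 hepatocyte markers, Apob, fell. The call of Des was lost without HRD1Alb refed replicate 2 and that of Apob with the length trend removed. In fasted HRD1Alb livers 2 macrophage markers rose, Emr1 and Cd68. Of the 5 cycling genes 0 were called in fasted livers, but their median log2 difference was 1.83 there and 1.65 in refed livers. Summed cycling genes were at 3.94 to 5.72 CPM in fasted WT and 14.7 to 17.2 CPM in fasted HRD1Alb livers. In refed livers the cycling sum was 4.31 to 5.01 CPM in WT and 9.99 to 13.3 CPM in HRD1Alb. Summed macrophage markers were at 96.2 to 107 CPM in fasted WT, 110 CPM in both refed WT libraries, 250 to 339 CPM in fasted HRD1Alb and 229 to 478 CPM in refed HRD1Alb livers. Summed stellate markers were at 190 to 374, 175 to 214, 452 to 461 and 374 to 514 CPM in the same groups. Cholangiocyte markers, of a cell type rich in annexin A2, were at 67.4 to 102 CPM in fasted WT, 56.6 to 63.5 CPM in refed WT, 59.0 to 59.7 CPM in fasted HRD1Alb and 44.7 to 73.0 CPM in refed HRD1Alb livers. The 6 neutrophil markers with counts summed to at most 1.25 CPM in any library, the summed endothelial markers ran from 94.6 to 123 CPM and the summed B cell markers from 1.37 to 2.48 CPM over the 8 libraries.

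Between the refed HRD1Alb libraries the macrophage sum was 229 CPM in the library labelled replicate 1 and 478 CPM in replicate 2, the reverse of the order of Anxa2 (148 and 124 CPM) and of Anxa1 (8.36 and 7.06 CPM) and the same order as S100a11 (11.1 and 18.2 CPM) and Anxa3 (6.99 and 11.4 CPM). Of the called macrophage markers only Ccr2 (4.27 and 2.96 CPM) had the order of Anxa2. The stellate sum was 514 and 374 CPM, in the same order as Anxa2, but most of it was Dcn (288 and 222 CPM), which was not called. Of the called stellate markers Col1a1 (34.0 and 15.3 CPM) and Col3a1 (60.3 and 32.0 CPM) had that order. Des (5.65 and 11.3 CPM) and Tagln (11.8 and 12.6 CPM) had the reverse order. In bulk liver, more cells of a type and more RNA per cell cannot be told apart, and the part of these cell types in the annexin differences was not tested.

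The genes whose profile over the 8 libraries was most like that of Anxa2 were sought among 11927 tested genes with a mean of at least 1 CPM, by the root mean square difference of log2 levels centred on the fasted WT mean. The nearest 5 that are not among the 10 were Gm19619 (0.32 log2 units), Mthfd2 (0.34), Npdc1 (0.37), Asns (0.43) and Sectm1a (0.45). Asns, the asparagine synthetase gene, was at 4.99 and 2.24 CPM in fasted WT, 3.61 and 3.23 CPM in refed WT, 16.3 and 16.1 CPM in fasted HRD1Alb and 48.6 and 27.3 CPM in refed HRD1Alb livers. Mthfd2, which encodes a mitochondrial folate enzyme, was at 1.45 and 1.05, 1.85 and 1.26, 3.62 and 5.50, and 15.4 and 10.9 CPM in the same groups. Among the 10 genes S100a11 was nearest to Anxa2 at rank 53 (0.75 log2 units), followed by Anxa1 at rank 637, Anxa3 at rank 699 and Anxa5 at rank 1608, while S100a10 was at rank 4804 and Anxa11 at rank 10332.

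S100a10 had other neighbours: Tbcc (0.10 log2 units), Psmg3 (0.13), Nmi (0.14), Hist1h2bc (0.14) and Abhd14a (0.17). Each of them was higher in HRD1Alb refed replicate 2 than in any other library, as S100a10 was. Tbcc, for example, was at 34.4 CPM there and at 8.77 to 15.8 CPM in the other libraries. Anxa2 stood at rank 11719 of 11927 in the order of likeness to S100a10.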

How the data were processed

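Liver RNA of 8 samples was sequenced on an Illumina NextSeq. The authors deposited whole-number read counts per gene symbol, 1 table per sample, without normalization. The study's methods name ERANGE for counting, whereas the submitters' processing notes name cutadapt, STAR, HTSeq and DESeq2 with mm10, so the steps behind the counts are not settled, and neither is how reads shared with pseudogenes were treated. Gene lengths and positions came from GENCODE M21 (GRCm38) for 89.6% of symbols.

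The analysis ran in edgeR 4.0.16 under R 4.3.3. Genes kept by filterByExpr (minimum count 10, minimum total 15) numbered 14328 of 23337. One quasi-likelihood model over 4 groups with TMM normalization was fitted (common dispersion 0.0573, median prior degrees of freedom 3.38), with Benjamini-Hochberg adjustment over all tested genes and calls at an adjusted p under 0.05. CPM are TMM-normalized, and a standard error is the size of the log2 fold change over the root of its F value. The steps were tested on simulated data. Alternatives used RLE normalization, DESeq2 1.42.0, limma-trend (limma 3.58.1), other filters, a fit to the 4 samples of each contrast alone, a replicate block, a length offset, a 2-fold rule, each sample left out in turn and, chosen after seeing the data, scaling by library totals alone.

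The members and lists were chosen with earlier results of these data known. Named are all 10 members, Syvn1, the listed genes called in a genotype contrast with up to 4 others per list, and the 5 genes most like Anxa2 and most like S100a10. Ahnak2 and Ly6g were not matched, and Adgre1 is listed as Emr1. Floors cover counting error only, while standard errors and SDs take in the spread between samples. Figures were drawn with matplotlib.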

Additional observations from a re-analysis of the deposited data

How the results depend on the processing

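The refed count of 5 called genes among the 10 was 0 in a fit of only the 4 refed samples and ran from 0 to 8 when samples were left out in turn. The fasted count of 1 was 3 with DESeq2, with only the 4 fasted samples and with library totals, 4 with a length offset and 2 with the 2-fold rule, and ran from 0 to 4 with samples left out. The refeeding count of 2 in HRD1Alb livers was 1 with RLE normalization and with limma-trend (S100a10 lost in both), 0 with only its 4 samples, and 0 to 5 with samples left out. The interaction count of 0 was 1 with DESeq2, 4 with the 2-fold rule, and 0 to 4 with samples left out. Over the lists of other annexins, other S100 genes and partners, the refed count of 9 was 14 with DESeq2, 0 with only the 4 samples and 0 to 24 with samples left out, and the fasted count of 0 was 3 with DESeq2, 4 with only the 4 samples, 4 with a length offset alone or with the replicate block, 1 with library totals and 0 to 10 with samples left out. A group left with 1 sample was assumed to vary like the others.

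Same-numbered samples did not pair (correlation of deviations 0.0161 to 0.179 over the pairs of groups). In the fit with the replicate block the counts among the 10 were 4 in refed livers (Anxa3 lost), 1 in fasted livers and 1 for refeeding in HRD1Alb livers (S100a10 lost). The length offset kept 5 in refed livers, with Anxa7 in and Anxa5 out. Over all genes, calls in refed livers were 1016 higher and 693 lower, and 1704 and 1486 with DESeq2, 1129 and 1560 with the length offset, 1975 and 283 with library totals, 0 and 0 with only the 4 samples, 3653 and 4052 without the library labelled HRD1Alb refed replicate 1, 1748 and 1718 without replicate 2, 1 and 0 without WT refed replicate 1, 2 and 0 without WT refed replicate 2, 242 and 172 or 251 and 175 without an HRD1Alb fasted sample, and 486 and 290 or 473 and 278 without a WT fasted sample. In fasted livers 132 and 62 calls became 632 and 462 with DESeq2, 364 and 549 with the length offset, 840 and 47 with library totals, 215 and 108 without a filter, 82 and 37 with the replicate block, 1152 and 881 with only the 4 samples, 1436 and 1723 or 1414 and 1704 without a refed HRD1Alb library, at most 20 and 3 without a WT refed sample and at most 3 and 1 without a fasted sample. Refeeding gave 172 and 202 calls in WT and 778 and 723 in HRD1Alb livers, and with DESeq2 496 and 590 and 1534 and 1387, with the length offset 399 and 378 and 1142 and 896, and with only the 4 samples 909 and 973 and 0 and 0. DESeq2 called 57 and 48 genes in the interaction. Library totals moved the median log2 difference of all genes to 0.26 in refed and 0.36 in fasted livers, 0.15 for refeeding in WT and -0.13 for the interaction, and the length offset moved the fasted median to -0.14. Of 890 fold changes of the 10 genes recomputed over 18 settings, 826 moved by less than 1 SE. With per-kilobase levels from the longest transcript, 44 of 45 pairs of genes kept their order. The causes of these changes were not tested.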

Other observations

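The actin genes of the cortical list, Actb and Actg1, were called higher after refeeding in both genotypes. Of all tested genes 1.2% were called higher in WT and 5.43% in HRD1Alb livers. A fit of only the 4 HRD1Alb samples called 0 of all tested genes. Actb, the gene of beta-actin, was at 324 and 444 CPM in fasted and 975 and 1071 CPM in refed WT livers (log2 difference 1.41, SE 0.239, adjusted p = 0.0346, edgeR quasi-likelihood test), and at 368 and 446 CPM in fasted and 1397 and 1903 CPM in refed HRD1Alb livers (2.02, SE 0.243, adjusted p = 0.00734). Actg1, the gene of gamma-actin, was at 2.07 and 3.70 CPM in fasted and 14.8 and 11.1 CPM in refed WT livers (2.17, SE 0.299, adjusted p = 0.0233), and at 3.21 and 3.11 CPM in fasted and 20.9 and 19.8 CPM in refed HRD1Alb livers (2.69, SE 0.300, adjusted p = 0.00569).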
